A study of Mus musculus with 48 samples.

Results

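Described here are 10 mouse genes, Hexim1, Ppp1r10, Wwox, Mob3b, Fbxo36, Clec2h, Pdgfrl, Tmem265, Cib3 and Cabyr, of the 24453 genes in the exon table. They were chosen by symbol for a large difference between Nono-/- and wild-type (WT) liver over the whole day in these same libraries. Their differences between the genotypes are therefore given as a description, without a test, and the count of members that differ supports nothing. RNA was sequenced from liver of Nono-/- and of wild-type C57BL/6 mice, all 14 weeks old, which carry no other stated allele. Every group was kept on a day of 12 h light and 12 h dark, with food in the dark phase alone for the week before sampling. Sampling ran in steps of 2 h over 12 zeitgeber times (ZT, counted in hours from lights on), and each liver sample pooled 2 mice and gave 1 library of total RNA and 1 of nuclear RNA. The 4 groups are Nono-/- total, WT total, Nono-/- nuclear and WT nuclear RNA, with 12 libraries each and 1 library at a time. The labels do not say how the Nono allele was made.

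Nono is a nuclear protein that binds RNA and DNA, is a DBHS protein like its relatives Sfpq and Pspc1, and takes part in transcription, splicing and the retention of RNA in paraspeckles. Liver RNA follows the clock and the feeding cycle, so many liver genes rise and fall each day. The introns of a gene are read mainly from unspliced transcripts, which are close to transcription, while exons of total RNA stand mostly for mature messenger RNA in the cytoplasm. The 10 genes are of different kinds. Hexim1 and Ppp1r10 control RNA polymerase II, Wwox and Mob3b are signalling adaptors, Fbxo36 is an F-box protein, Clec2h, Pdgfrl and Tmem265 are surface, receptor-like or membrane proteins, and Cib3 and Cabyr bind calcium.

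Depths worked out from the steps between low values ran from 9.91 to 28.9 M reads. Nono exons were at 0 to 0.0910 FPKM (reads scaled for exon length and library size) in Nono-/- total RNA, with 8 of 12 libraries at 0, against 8.74 to 10.7 FPKM in WT, so every library matched its label. Introns took 15.8% to 23.9% of the reads of Nono-/- total RNA, with a mean of 18.5%, against 19.2% to 24.6% and a mean of 22.1% in WT total RNA. Hepatocyte markers (7 of 8 listed genes in the table) summed to 36632 to 55527 FPKM in Nono-/- total RNA and to 33103 to 52144 FPKM in WT total RNA, as the label liver implies. Because there is 1 library at a time, every p-value measures the spread between pools of different times around a smooth daily curve.

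RefSeq promoter windows (GRCm38.p6, from upstream of the start to just past it) were found for 6 of the 10 genes. Shown are the 3 that were higher in Nono-/- liver in both total exons and nuclear introns, then Hexim1 and Ppp1r10, which were lower in total exons. They are set side by side to compare the starts of genes that moved the same way. All are written 5′ to 3′ along the gene, with capitals for a match to a searched motif.
Clec2h, chr6:128662135-128662434, plus strand: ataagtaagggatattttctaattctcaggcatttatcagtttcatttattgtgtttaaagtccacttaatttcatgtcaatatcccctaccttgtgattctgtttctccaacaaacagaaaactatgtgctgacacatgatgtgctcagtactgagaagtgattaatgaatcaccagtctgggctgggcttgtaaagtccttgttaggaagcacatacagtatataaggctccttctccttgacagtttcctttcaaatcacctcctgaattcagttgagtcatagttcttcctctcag
Cib3, chr8:72212788-72213087, minus strand: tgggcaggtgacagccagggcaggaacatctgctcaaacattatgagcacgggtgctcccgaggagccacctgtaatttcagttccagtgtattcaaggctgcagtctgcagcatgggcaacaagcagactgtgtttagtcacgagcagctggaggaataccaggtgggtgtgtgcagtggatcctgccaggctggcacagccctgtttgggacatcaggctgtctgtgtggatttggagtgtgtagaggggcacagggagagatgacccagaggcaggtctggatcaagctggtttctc
Fbxo36, chr1:84839591-84839890, plus strand: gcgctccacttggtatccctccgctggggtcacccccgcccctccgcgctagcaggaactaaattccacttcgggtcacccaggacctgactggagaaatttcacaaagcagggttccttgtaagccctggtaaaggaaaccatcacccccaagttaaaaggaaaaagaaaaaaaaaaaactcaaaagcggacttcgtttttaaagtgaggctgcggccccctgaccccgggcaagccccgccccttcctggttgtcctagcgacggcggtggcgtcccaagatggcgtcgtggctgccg
Hexim1, chr11:103116075-103116374, plus strand: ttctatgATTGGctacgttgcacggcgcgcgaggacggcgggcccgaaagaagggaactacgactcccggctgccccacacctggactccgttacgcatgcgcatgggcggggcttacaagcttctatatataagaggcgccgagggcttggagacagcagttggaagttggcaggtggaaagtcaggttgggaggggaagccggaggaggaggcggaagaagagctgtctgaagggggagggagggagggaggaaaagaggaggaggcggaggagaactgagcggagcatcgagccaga
Ppp1r10, chr17:35916946-35917245, plus strand: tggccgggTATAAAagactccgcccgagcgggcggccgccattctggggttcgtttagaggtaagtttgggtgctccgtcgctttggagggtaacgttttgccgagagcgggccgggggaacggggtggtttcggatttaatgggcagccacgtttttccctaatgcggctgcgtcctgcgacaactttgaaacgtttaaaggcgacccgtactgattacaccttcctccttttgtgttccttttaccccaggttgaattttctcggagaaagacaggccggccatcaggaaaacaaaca
Searched on both strands were the E-box CACGTG, the D-box TTATGTAA, the ROR half-site AGGTCA, the cAMP response element TGACGTCA, the CCAAT box CCAAT and the TATA box TATAAA. Of all 32851 promoter windows 7.15%, 0.938%, 16.3%, 1.79%, 37.4% and 13.6% hold these motifs in that order. The windows of Clec2h, Cib3 and Fbxo36 hold none of these exact strings. Variants were not searched, such as TATATAAG, which the printed windows of Clec2h and Hexim1 hold. Hexim1 holds 1 CCAAT box on the other strand at -243, Ppp1r10 holds 1 TATA box at -242, and Mob3b, which is not printed, holds 1 CCAAT box on the other strand at -153, all counted from the start. The window of Clec2h had a GC content of 38.0% and those of Cib3, Fbxo36, Hexim1 and Ppp1r10 had 55.7%, 57.0%, 61.0% and 54.3%, against a median of 52.7% over all windows. A match is a string of letters and no binding was measured, and the 3 windows of the genes that were higher share no motif searched here.

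In exons of total RNA 9 of the 10 genes passed the filter on low values, a mean of at least 0.5 FPKM, and Pdgfrl did not. Of these, 3 were higher in Nono-/- (Fbxo36, Clec2h and Cib3) and 6 were lower (Hexim1, Ppp1r10, Wwox, Mob3b, Tmem265 and Cabyr). Among all 11340 genes tested, 10.9% passed the threshold (adjusted p under 0.05) either way in limma, 506 higher and 734 lower (762 and 539 without scaling), and nothing is read from the members against that share because this contrast chose them. A fit blocked on time had 943 higher and 1121 lower genes. The total was 783 when ZT12 was dropped, 763 without ZT14 and 713 without ZT16. In nuclear exons 34.4% of genes passed, in total introns 16% (6.68% higher and 9.31% lower) and in nuclear introns 18.1%. Without scaling the median gene stood at -0.20 in nuclear exons and -0.21 in total introns, and the differences below are relative to it. There the higher and lower genes were 1652 and 1922 in nuclear exons (380 and 3398 without scaling) and 626 and 872 in total introns (102 and 3444 without scaling, and 417 and 273 with a filter 4 times stricter). The members' differences were not all large. Hexim1 and Mob3b differed by -0.29 and -0.42 on the log2 scale, the other 7 by more than 0.5 either way. The measures separate the members further. Wwox, Cabyr and Pdgfrl were lower and Clec2h, Cib3 and Fbxo36 higher in nuclear introns too, whereas Ppp1r10, Mob3b and Tmem265 stood at -0.11, 0.07 and 0.05 there.

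**Figure D1:**
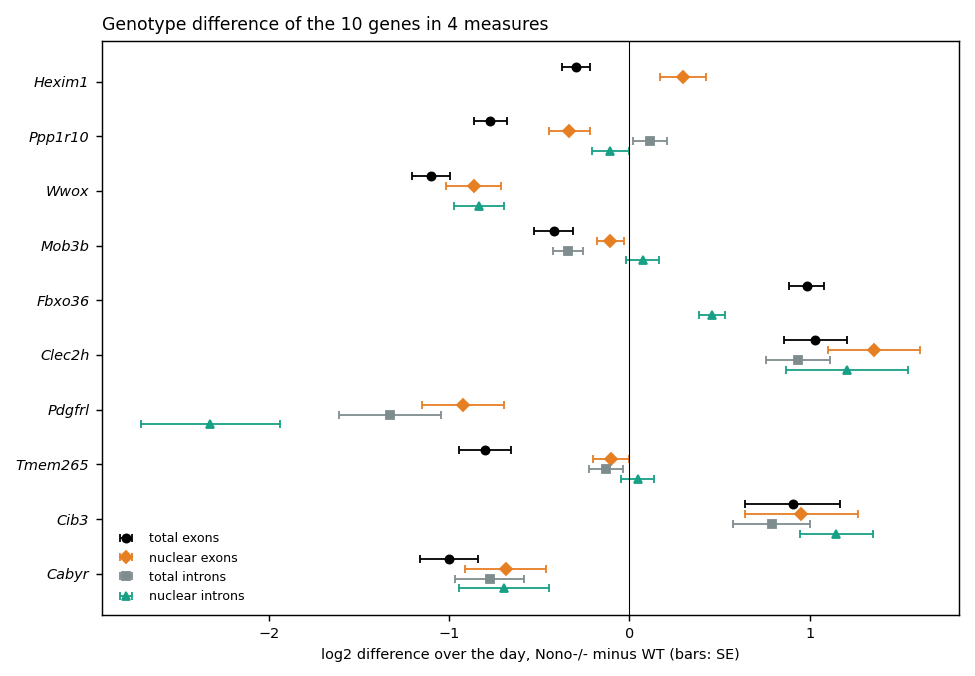
Log2 difference over the day, Nono-/- minus WT (x axis, log2 of scaled FPKM plus a pseudocount), for each of the 10 genes (y axis) in exons and introns of total and nuclear RNA. Points are fitted differences and bars their SE; a gene has no point where it was not tested. Clec2h and Cib3 lie right of 0 and Wwox, Pdgfrl and Cabyr left of 0 in every measure tested, while Ppp1r10, Mob3b and Tmem265 are left of 0 in total exons and near 0 in nuclear introns.

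Hexim1 encodes an inhibitor that, bound to the 7SK RNA, holds the elongation kinase P-TEFb inactive. It lies on chromosome 11 from 103116325 to 103119724 on the plus strand (mm10, as are all gene positions here) and has a single exon, so introns give no value. In total RNA its exons had a lowest value of 2.32, a median of 4.75 and a highest of 5.90 FPKM in Nono-/- livers, against 3.46, 5.04 and 8.18 FPKM in WT livers. The ranges overlapped, and Nono-/- was the lower one at 9 of 12 times. The largest gaps lay in the dark phase, where 4 WT libraries exceeded every Nono-/- library. In nuclear exons it had 1.31, 2.04 and 2.43 FPKM in Nono-/- nuclei, against 1.15, 1.81 and 2.52 FPKM in WT nuclei, and a difference of 0.30 (SE 0.13) relative to the median gene, or 0.092 without scaling. The total RNA difference was -0.29 (SE 0.08), and -0.49 with the libraries' intron share as a covariate.

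Ppp1r10 encodes PNUTS, the nuclear subunit that directs protein phosphatase PP1 to RNA polymerase II at the ends of genes. It spans 15.1 kb of chromosome 17 (35917196 to 35932283, plus strand), with the microRNA gene Mir1894 inside it on the same strand. Exons in total RNA had 2.45, 3.17 and 4.65 FPKM (lowest, median, highest) in Nono-/- livers, against 3.87, 5.61 and 7.72 FPKM in WT livers. Nono-/- was lower at all 12 times, and 10 of its 12 libraries lay under every WT library. Its introns in nuclear RNA had 5.45, 6.91 and 8.30 FPKM in Nono-/- nuclei, against 5.60, 7.30 and 11.4 FPKM in WT nuclei, with Nono-/- lower at 7 of 12 times. Those ranges overlapped, with 2 WT libraries above every Nono-/- library. The log2 difference was -0.77 (SE 0.09) in total exons, -0.33 (SE 0.11) in nuclear exons and -0.11 (SE 0.10) in nuclear introns. Mature PNUTS RNA was thus lower by 1.71-fold in Nono-/- liver, while its unspliced nuclear signal differed by about its own SE. In total RNA introns the difference was 0.11 (SE 0.09), and -0.14 without scaling of the libraries. The nuclear exon difference was -0.54 without scaling.

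Wwox encodes a protein with WW domains and an oxidoreductase domain that binds PPxY motifs of many partners and acts as a tumour suppressor. It is the longest of the 10, spanning 913 kb of chromosome 8 (114439652 to 115352712, plus strand), nearly all of it introns. Total RNA exons had 0.342, 0.643 and 0.976 FPKM in Nono-/- livers, against 1.12, 1.47 and 1.87 FPKM in WT livers. This is the only one of the 10 whose genotype ranges in total exons do not touch, as in 0.0441% of all tested genes. No member is so separated in nuclear exons, total introns or nuclear introns, where 0.0192%, 0.032% and 0.0415% of genes are. Nuclear introns had 0.234, 0.401 and 0.968 FPKM in Nono-/- nuclei, against 0.360, 0.842 and 1.94 FPKM in WT nuclei. Nono-/- was lower at all 12 times although the ranges overlapped, since both genotypes swing through the day. The difference was -1.10 (SE 0.11) in total exons, -0.86 (SE 0.15) in nuclear exons and -0.83 (SE 0.14) in nuclear introns. Exon values rest on 12 to 42 reads a library in Nono-/- and 39 to 95 in WT total RNA, but nuclear introns on 2822 to 14670 and on 5369 to 38358 reads. Total introns stayed under the minimum, at 0.0523 ± 0.0263 FPKM in Nono-/- and 0.140 ± 0.0556 FPKM in WT (mean ± SD, n = 12 each).

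Mob3b, a member of the MOB family of kinase adaptors, spans 208 kb of chromosome 4 (34949074 to 35157484, minus strand). Ifnk lies inside it on the other strand, and since no strand option is recorded for the counting, reads of the overlap cannot be assigned to either gene. Total RNA exons had 2.16, 3.60 and 5.06 FPKM in Nono-/- livers, against 3.44, 4.48 and 6.61 FPKM in WT livers. Nono-/- was lower at 11 of 12 times, with widely overlapping ranges. Nuclear introns, which are deeply covered at 6280 reads or more a library, had 1.84, 2.58 and 3.56 FPKM in Nono-/- nuclei, against 1.89, 2.53 and 3.40 FPKM in WT nuclei. In this unspliced signal Nono-/- was higher at 7 of 12 times and lower at 5. Differences were -0.42 (SE 0.11) in total exons, -0.34 (SE 0.08) in total introns, -0.11 (SE 0.07) in nuclear exons and 0.07 (SE 0.09) in nuclear introns. With the intron share as a covariate they were -0.26 in total exons, -0.10 in total introns and -0.061 in nuclear introns. Without scaling they were -0.56 in total introns and -0.31 in nuclear exons.

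Fbxo36 encodes an F-box protein, the kind that brings targets to SCF ubiquitin ligases. It spans 60.6 kb of chromosome 1 (84839841 to 84900486, plus strand), 537 bp from the start of Trip12, a ubiquitin ligase gene on the minus strand. Its exons in total RNA had 5.04, 7.22 and 9.33 FPKM in Nono-/- livers, against 2.88, 3.31 and 5.52 FPKM in WT livers. Nono-/- was higher at all 12 times, and 11 of its 12 libraries lay above every WT library. Nuclear introns had 0.190, 0.242 and 0.425 FPKM in Nono-/- nuclei, against 0.131, 0.181 and 0.25 FPKM in WT nuclei, again higher in Nono-/- at 12 of 12 times but with overlap. The log2 difference was 0.98 (SE 0.10) in total exons and 0.46 (SE 0.07) in nuclear introns, and nuclear exons and total introns were too low to be tested. With a pseudocount 5 times larger the nuclear intron difference was 0.27. Total introns averaged 0.0422 FPKM in Nono-/- and 0.0446 FPKM in WT, with Nono-/- higher at 6 of 12 times. Trip12 had 22.9 ± 2.94 FPKM in Nono-/- total RNA and 22.6 ± 2.00 FPKM in WT (SD, n = 12 each), a difference of -0.0045 (limma adjusted p = 0.974). In nuclear exons Trip12 was higher in Nono-/- by 0.25 (SE 0.07, limma adjusted p = 0.0147), and by 0.04 without scaling (adjusted p = 0.622).

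**Figure D2:**
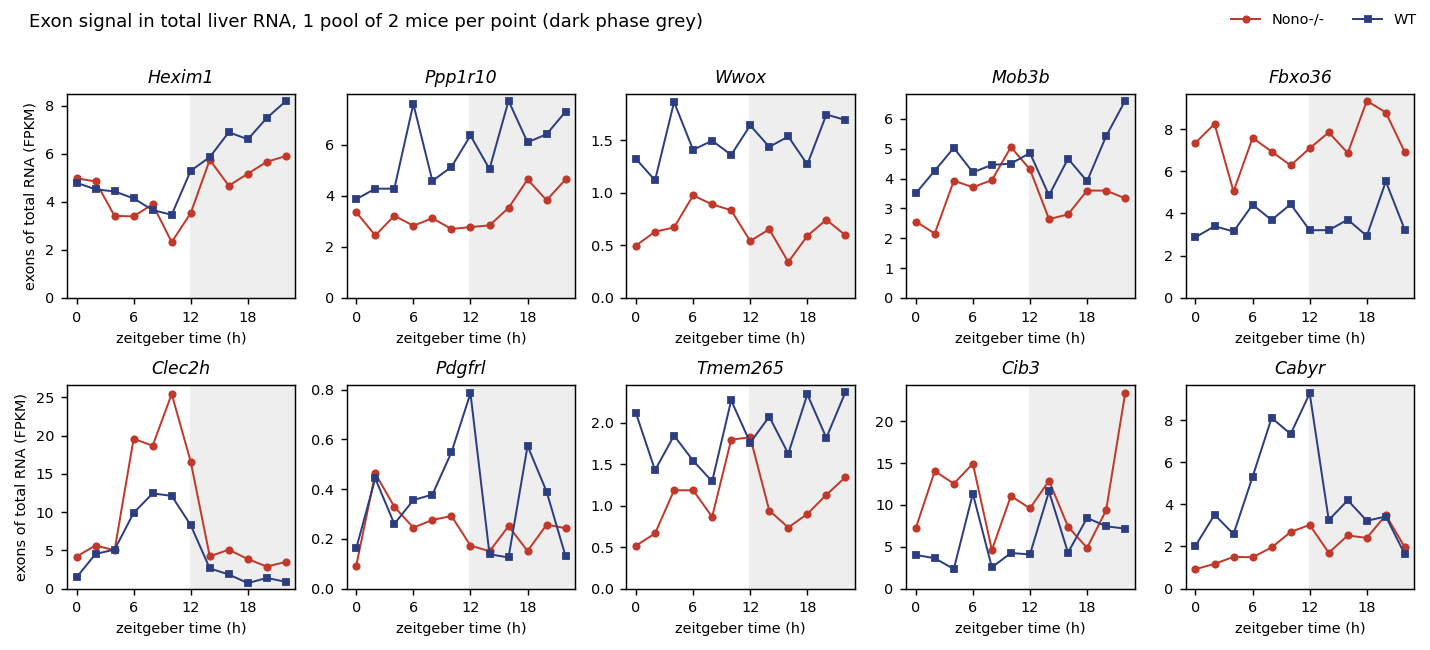
Exon signal of total RNA (FPKM, y axes from 0) by zeitgeber time in hours (x axes) for the 10 genes, with 1 pool of 2 mice per point, Nono-/- in red circles and WT in blue squares, and the dark phase in grey. Wwox separates the genotypes at every time, Fbxo36 and Ppp1r10 do so at all 12 times with overlapping ranges, and Clec2h has its maximum in the light phase in both genotypes.

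Clec2h encodes a C-type lectin of the family whose members serve as ligands of NKR-P1 receptors on natural killer cells. It spans 15.0 kb of chromosome 6 (128662385 to 128677374, plus strand), among the Klrb1 receptor genes. As a member of a family of close copies, its value depends on how reads that fit several places were counted, and the sources used here do not say. In total RNA its exons had 2.87, 5.04 and 25.4 FPKM in Nono-/- livers, against 0.712, 3.58 and 12.4 FPKM in WT livers. Nono-/- was higher at 11 of 12 times, and at ZT6 to ZT12 Nono-/- had 16.6 to 25.4 FPKM and WT 8.29 to 12.4 FPKM. As a ratio the gap was wider at ZT18, with 3.85 FPKM in Nono-/- and 0.712 FPKM in WT. Nuclear introns had 0.516, 1.71 and 6.33 FPKM in Nono-/- nuclei, against 0.240, 0.586 and 3.04 FPKM in WT nuclei. Here too Nono-/- was higher at 11 of 12 times. The difference was 1.03 (SE 0.17) in total exons, 1.36 (SE 0.26) in nuclear exons, 0.93 (SE 0.18) in total introns and 1.21 (SE 0.34) in nuclear introns, that is 2.04-fold in mature RNA and 2.31-fold in unspliced nuclear RNA.

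Pdgfrl encodes a secreted protein that resembles the ligand-binding part of PDGF receptors. It spans 64.5 kb of chromosome 8 (40926233 to 40990770, plus strand), 4163 bp past the arginine transporter gene Slc7a2 and 142 bp from Mtus1. Mature RNA was scarce, with 0.0920, 0.248 and 0.463 FPKM in Nono-/- total RNA, against 0.125, 0.367 and 0.786 FPKM in WT total RNA, or 2 to 10 and 3 to 28 reads a library. At this depth the ranges overlapped widely, with Nono-/- higher at 5 of 12 times. Introns in nuclear RNA had 0.0750, 0.112 and 0.298 FPKM in Nono-/- nuclei, against 0.106, 0.664 and 2.70 FPKM in WT nuclei. Nono-/- was lower at all 12 times, and 10 of 12 WT libraries lay above every Nono-/- library. The difference was -2.32 (SE 0.38) in nuclear introns, a 5.01-fold lower level and the largest of any member. It was -1.33 (SE 0.28) in total introns and -0.92 (SE 0.23) in nuclear exons. Total introns averaged 0.0265 FPKM in Nono-/-, under the minimum of 0.1 FPKM and the pseudocount of 0.05, and 0.224 FPKM in WT. Pdgfrl thus passed that filter only through WT, and the pseudocount shapes the total intron difference.

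WT livers did not share 1 level of unspliced Pdgfrl. Nuclear introns stood at 2.29, 2.18, 2.50, 2.70 and 1.81 FPKM at ZT2, ZT8, ZT10, ZT12 and ZT18 in WT, while the other 7 WT libraries had 0.106 to 0.733 FPKM. The same livers were the high ones in total RNA introns, with 0.297, 0.440, 0.435, 0.471 and 0.571 FPKM at those times and 0.0280 to 0.1 FPKM at the other 7. Of these times ZT8, ZT10 and ZT12 follow each other and ZT2 and ZT18 stand alone, and no 24 h rhythm passed the threshold in WT nuclear introns (limma adjusted p = 0.162, and 0.0269 without ZT2). Since total and nuclear RNA were prepared from separate portions of a liver sample, the 2 sets of values are separate libraries of the same pools. No Nono-/- library exceeded 0.298 FPKM in nuclear introns or 0.0610 FPKM in total introns, both at ZT10. What sets the high WT pools apart was not tested. Slc7a2 next to it had 12.6 to 75.1 FPKM of nuclear introns in Nono-/- and 13.1 to 85.4 FPKM in WT, with a difference of -0.29 that did not pass the threshold (limma adjusted p = 0.476).

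**Figure D3:**
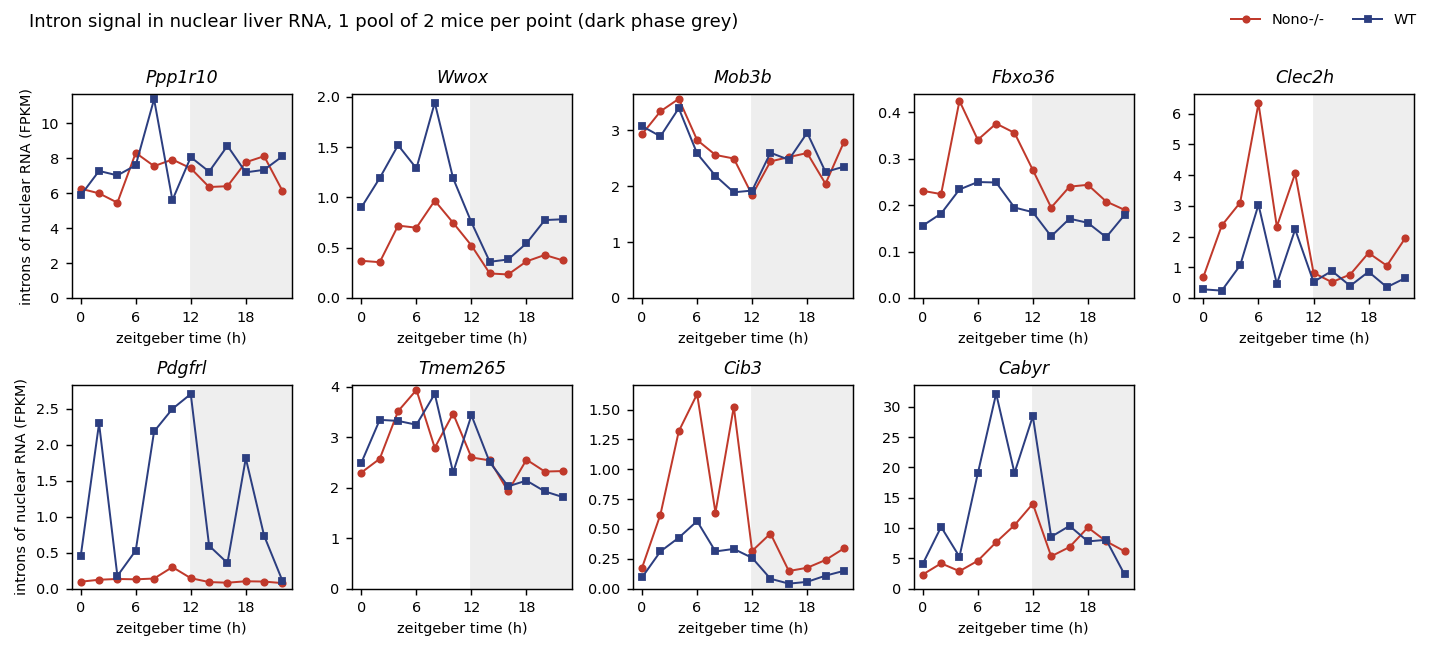
Intron signal of nuclear RNA (FPKM, y axes from 0) by zeitgeber time in hours (x axes) for the 9 genes with introns, with 1 pool of 2 mice per point, Nono-/- in red circles and WT in blue squares, and the dark phase in grey. Pdgfrl in WT alternates between about 2 FPKM and under 0.8 FPKM while Nono-/- stays at or under 0.298 FPKM, Wwox and Cib3 have their maximum in the light phase in both genotypes at different heights, and Ppp1r10, Mob3b and Tmem265 overlap.

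Tmem265 encodes a small transmembrane protein whose function is little known. It is a gene of 4.05 kb on chromosome 7 (127561223 to 127565270, plus strand) that begins 4 bp past the annotated end of Srcap on the same strand. In total RNA exons it had 0.517, 1.04 and 1.82 FPKM in Nono-/- livers, against 1.29, 1.83 and 2.37 FPKM in WT livers. Nono-/- was lower at 11 of 12 times, and 9 of its libraries lay under every WT library. Nuclear introns had 1.93, 2.56 and 3.93 FPKM in Nono-/- nuclei, against 1.81, 2.50 and 3.85 FPKM in WT nuclei, with no order between the genotypes. The difference was -0.80 (SE 0.15) in total exons, -0.10 (SE 0.10) in nuclear exons and 0.05 (SE 0.09) in nuclear introns, where it changed sign without ZT10 (-0.022). In total introns it was -0.13 (SE 0.10). Without scaling it was -0.31 in nuclear exons, where Nono-/- was lower at 10 of 12 times, and -0.36 in total introns. With the intron share as a covariate the total exon difference was -0.47, and the nuclear intron difference was -0.0031. Exon values rest on 8 to 49 reads a library in Nono-/- and 26 to 66 in WT total RNA.

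Srcap encodes a chromatin remodeller that loads the histone variant H2A.Z. It had 1.11, 2.36 and 3.25 FPKM in Nono-/- total RNA, against 2.22, 3.67 and 5.25 FPKM in WT total RNA. It fell by 0.68 on the log2 scale (SE 0.14, limma adjusted p = 0.00435, lower in Nono-/- than in WT), a call that held whichever time was left out but not with the intron share as a covariate (-0.43, adjusted p = 0.315). In nuclear exons and nuclear introns Srcap did not pass, at -0.15 (adjusted p = 0.252) and 0.13 (adjusted p = 0.240). Among all 11340 tested genes Srcap was also the one whose values over the 24 total RNA libraries were closest to those of Tmem265, with a root mean square distance of 0.27 on the log2 scale against a median of 0.63. That distance holds the genotype difference that chose Tmem265, so it is no support for a link. Crebbp, on chromosome 16, was nearly as close at 0.29. With 4 bp between the annotated ends, reads of transcripts that run past Srcap cannot be told apart from Tmem265 reads here.

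Cib3, a calcium and integrin binding protein of the EF-hand kind known from inner ear hair cells, lies on chromosome 8 from 72204335 to 72212837 on the minus strand. Its exons are short (639 bp), so its FPKM rest on few reads, 54 to 201 a library in Nono-/- and 31 to 147 in WT total RNA. Total RNA exons had 4.60, 10.3 and 23.4 FPKM in Nono-/- livers, against 2.34, 4.27 and 11.6 FPKM in WT livers. Nono-/- was higher at 11 of 12 times, and 5 of its libraries lay above every WT library. The top value, 23.4 FPKM at ZT22, is a single pool. Leaving out each of the 12 times in turn gave differences of 0.82 to 1.04. Nuclear introns had 0.147, 0.399 and 1.63 FPKM in Nono-/- nuclei, against 0.0410, 0.203 and 0.565 FPKM in WT nuclei. Nono-/- was higher at all 12 times. The difference was 0.90 (SE 0.27) in total exons, 0.95 (SE 0.31) in nuclear exons, 0.79 (SE 0.22) in total introns and 1.15 (SE 0.20) in nuclear introns.

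Cabyr encodes a calcium-binding protein first described in the fibrous sheath of sperm tails, where protein kinase A anchors. It spans 13.8 kb of chromosome 18 (12741355 to 12755142, plus strand). Total RNA exons had 0.919, 1.95 and 3.49 FPKM in Nono-/- livers, against 1.62, 3.46 and 9.27 FPKM in WT livers. Nono-/- was lower at 10 of 12 times. At ZT6 to ZT12 WT had 5.31 to 9.27 FPKM and Nono-/- 1.49 to 3.02 FPKM, while from ZT14 to ZT22 the genotypes overlapped. Nuclear introns had 2.31, 6.5 and 14.0 FPKM in Nono-/- nuclei, against 2.32, 9.35 and 32.2 FPKM in WT nuclei, with the 4 WT libraries of ZT6 to ZT12 above every Nono-/- library. The difference over the day was -1.0 (SE 0.16) in total exons, -0.69 (SE 0.23) in nuclear exons, -0.78 (SE 0.19) in total introns and -0.70 (SE 0.25) in nuclear introns. It is thus an average over hours with a wide gap and hours with overlapping levels. With the intron share as a covariate the Cabyr differences were -0.66 in total exons and -0.52 in total introns. In nuclear exons and nuclear introns they were then -0.70 and -0.73.

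The daily course did not enter the choice of the genes and was tested for each with a 24 h curve in limma, adjusted over all genes. In total exons 4 of 9 tested members passed in Nono-/- and 3 of 9 in WT, where 29.6% and 31.7% of all genes did. Nuclear exons had 4 of 9 in Nono-/- and 4 of 9 in WT, against 31.1% and 10.6% of all genes. In nuclear introns 5 of 9 passed in Nono-/- and 5 of 9 in WT, against 31.8% and 20.7%. With 9 genes these counts describe the members only. Leaving out each time in turn, 2, 3, 2, 3, 3 and 4 of them kept the call every time in that order.

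In total exons Clec2h had the widest curve of the 9 tested members. It varied 6.67-fold between trough and peak of the fitted curve in Nono-/- with a peak at ZT8.86 (limma adjusted p = 4.44e-05), and 13.9-fold in WT with a peak at ZT8.05 (limma adjusted p = 6.73e-07). Nuclear exons of Clec2h followed, at 4.28-fold in Nono-/- (limma adjusted p = 0.0160) and 4.82-fold in WT (limma adjusted p = 0.0164). Those nuclear calls were lost without ZT6 in Nono-/- (adjusted p = 0.0611) and without ZT10 in WT, where the adjusted p lay just above the threshold. Its nuclear introns had a 4.47-fold curve in Nono-/- (limma adjusted p = 0.0504) and a 2.95-fold curve in WT (limma adjusted p = 0.217), neither past the threshold. In total RNA the rhythm held whichever time was left out.

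In total exons Hexim1 peaked in the dark phase in both genotypes. Its nuclear exons passed in neither (limma adjusted p = 0.284 in Nono-/- and 0.611 in WT). The curve of its total exons was 1.87-fold in Nono-/- with a peak at ZT19.8 (limma adjusted p = 0.000876) and 1.95-fold in WT with a peak at ZT19.0 (limma adjusted p = 0.000388), and both held without any 1 time. Ppp1r10 passed in Nono-/- alone, with a 1.53-fold curve (limma adjusted p = 0.0414) that failed without ZT4, ZT10, ZT12, ZT16, ZT18, ZT20 or ZT22 in turn (adjusted p up to 0.122), and its WT curve had an adjusted p of 0.160. The difference between the 2 curves was not past the threshold (limma adjusted p = 0.523), so a rhythm in 1 genotype only was not shown.

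Cib3 and Wwox passed in both genotypes in unspliced RNA. Nuclear introns of Cib3 varied 5.97-fold in Nono-/- with a peak at ZT6.54 (limma adjusted p = 0.000584) and 4.96-fold in WT with a peak at ZT6.04 (limma adjusted p = 0.00141). Nuclear exons of Cib3 did the same, 8.70-fold in Nono-/- (limma adjusted p = 0.00496) and 11.4-fold in WT (limma adjusted p = 0.00271), whereas its total exons passed in neither genotype (limma adjusted p = 0.727 in Nono-/- and 0.351 in WT). These nuclear exons rest on 5 to 83 reads a library in Nono-/- and 0 to 37 in WT. Near-zero values and the pseudocount therefore shape both folds. The difference in rhythm between nuclear and total RNA was not tested. For Wwox, nuclear introns varied 2.4-fold in Nono-/- (peak ZT6.43, limma adjusted p = 0.00662) and 3.41-fold in WT (peak ZT4.97, limma adjusted p = 0.000521), and total exons again passed in neither (limma adjusted p = 0.136 in Nono-/- and 0.975 in WT). These intron calls held whichever time was left out. The difference between the 2 intron curves did not pass (limma adjusted p = 0.922 for Cib3 and 0.751 for Wwox). No gene passed that test, so a like shape in both genotypes was not shown. In nuclear exons Wwox passed in Nono-/- alone (limma adjusted p = 0.0362), a call lost without ZT4, ZT6, ZT8, ZT10, ZT12, ZT16 or ZT22 in turn.

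Tmem265 and Fbxo36 had shallower curves in nuclear introns, both with peaks in the middle of the light phase. Those of Tmem265 were 1.56-fold in Nono-/- (limma adjusted p = 0.0304) and 1.84-fold in WT (limma adjusted p = 0.00527), and the Nono-/- call was lost without ZT4, ZT6, ZT16 or ZT20 in turn (adjusted p up to 0.106). Its nuclear exons passed in WT, 1.98-fold (limma adjusted p = 0.00690), though not when a 12 h curve was fitted with the 24 h one (adjusted p = 0.0844). Fbxo36 introns were 1.67-fold in Nono-/- (limma adjusted p = 0.00328) and 1.51-fold in WT (limma adjusted p = 0.0154), and the WT call was lost without ZT6, ZT8 or ZT20 in turn (adjusted p up to 0.0664). Mob3b passed in Nono-/- alone, in nuclear exons (1.53-fold, limma adjusted p = 0.0135) and in nuclear introns (1.53-fold, limma adjusted p = 0.0396). The exon call was lost without scaling (adjusted p = 0.206) and the intron call without any 1 of ZT2 to ZT12 (adjusted p up to 0.168).

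Cabyr is the member whose daily course looked most unlike between the genotypes. In total exons its curve was 2.18-fold in Nono-/- with a peak at ZT14.7 (limma adjusted p = 0.0308) and 3.51-fold in WT with a peak at ZT10.3 (limma adjusted p = 0.000869). The Nono-/- call was lost without ZT0, ZT2, ZT6, ZT10, ZT12 or ZT16 in turn (adjusted p up to 0.0791), the WT call held throughout. Nuclear exons had 2.27-fold in Nono-/- (peak ZT13.8, limma adjusted p = 0.106) and 6.54-fold in WT (peak ZT9.77, limma adjusted p = 0.00142). Nuclear introns had 2.73-fold in Nono-/- (peak ZT13.8, limma adjusted p = 0.0714) and 6.01-fold in WT (peak ZT9.96, limma adjusted p = 0.00310). The test of the difference between the curves gave p = 0.00417, 0.00495 and 0.0181 in total exons, nuclear exons and nuclear introns, but limma adjusted p = 0.463, 0.772 and 0.740 over all genes, so it failed the correction. No gene passed that test in any of the 3 measures, 0% of all genes, with 1206, 540 and 799 genes at an unadjusted p under 0.05 in limma, the only tool run. A later peak of Cabyr in Nono-/- was therefore not shown.

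Next, nuclear and total RNA of the same WT livers were compared, a measure that the genotypes do not enter. Each value is the log2 difference, nuclear minus total, after scaling, so it is relative to the median gene. Without scaling that median gene stood at -1.21 in exons and 1.57 in introns. Of the 10 members 6 were higher in nuclear exons and 3 lower, where 42.2% and 46.5% of 11483 genes were, and 1, Clec2h, was not past the threshold. With 88.7% of all genes past it, the count says little about the members, and the sizes and their order are the description.

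Cabyr, Pdgfrl, Tmem265, Ppp1r10 and Wwox carried more of their exon signal in the nucleus than the median gene. The difference was 2.80 (SE 0.07, limma adjusted p = 3.18e-13) for Cabyr, 2.73 (SE 0.15) for Pdgfrl and 1.49 (SE 0.10, limma adjusted p = 4.61e-09) for Tmem265. For Ppp1r10 it was 1.16 (SE 0.09, limma adjusted p = 2.69e-08), and for Wwox 0.97 (SE 0.12, limma adjusted p = 3.18e-06). For Cabyr that is a 6.96-fold excess over the median gene, with means of 16.1 FPKM in WT nuclei and 4.49 FPKM in WT total RNA. Mob3b was near the median gene at 0.27 (SE 0.08, limma adjusted p = 0.00510). Fbxo36 stood at the other end with -2.60 (SE 0.11), followed by Cib3 with -1.61 (SE 0.35, limma adjusted p = 0.000651). Clec2h had -0.39 (SE 0.19, limma adjusted p = 0.0636, and 0.0337 in a fit that did not pair the libraries) and Hexim1 -0.38 (SE 0.07, limma adjusted p = 0.000127). Without scaling the Mob3b and Wwox differences were -0.87 and -0.11, and that of Ppp1r10 was 0.02, so their place is one relative to the median gene. Fbxo36 and Pdgfrl, included in the counts above, passed the filter only through the fraction where they are high, so no p-value is given for them. Fbxo36 had a mean of 0.224 FPKM in WT nuclear exons (1 to 6 reads a library). Pdgfrl had 0.357 FPKM in WT total exons (3 to 28 reads a library). With a pseudocount 5 times larger the Fbxo36 and Pdgfrl differences were -1.81 and 1.80.

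**Figure D4:**
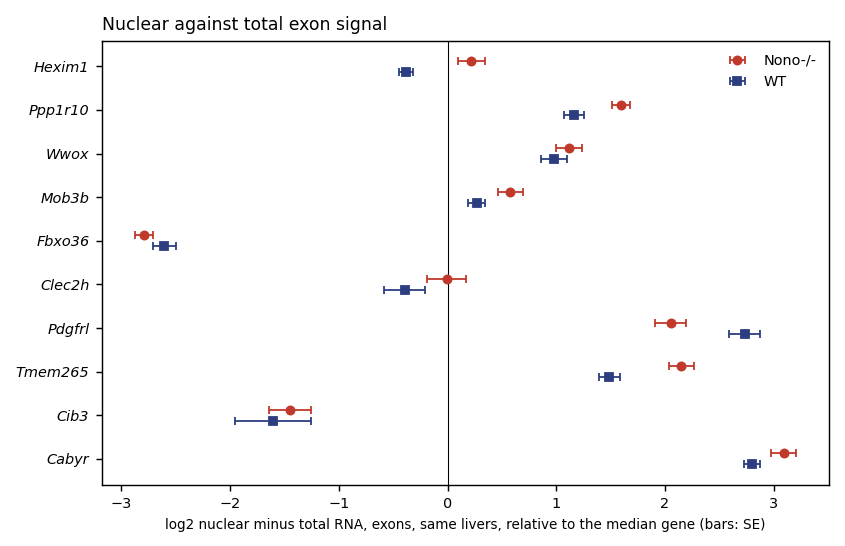
Log2 difference of exon signal, nuclear minus total RNA of the same livers, relative to the median gene (x axis) for the 10 genes (y axis) in Nono-/- (red circles, above) and WT (blue squares, below), with SE bars over 12 livers each. In WT, Cabyr and Pdgfrl stand highest at 2.80 and 2.73, and Fbxo36 lowest at -2.60. Pdgfrl rests on few reads in total RNA and Fbxo36 on few in nuclear RNA.

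In introns 5 of 8 members tested were higher in WT nuclei relative to the median gene and 2 lower, against 40.7% and 29.9% of all genes, or 70.5% either way. Wwox stood highest at 0.86 (SE 0.05, limma adjusted p = 1.41e-08), before Mob3b at 0.79 (SE 0.03, limma adjusted p = 2.20e-09). Pdgfrl followed at 0.61, Tmem265 at 0.54 and Cabyr at 0.33, while Clec2h was at -0.45 and Cib3 at -0.86. Ppp1r10 did not pass, at 0.05 (limma adjusted p = 0.298). The signs of Clec2h and Cib3 are relative too: as deposited, their introns were 1.08 and 0.38 higher in WT nuclei. In a fit that did not pair the 2 libraries of a liver, the calls of Cabyr, Clec2h and Pdgfrl introns were lost (adjusted p = 0.269, 0.18 and 0.283).

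The nuclear excess in Nono-/- livers is given beside it without a test, since the genotype differences that chose the genes enter it. For exons it was 3.09 in Nono-/- against 2.80 in WT for Cabyr, 2.15 against 1.49 for Tmem265 and 1.59 against 1.16 for Ppp1r10. Hexim1 had 0.22 in Nono-/- and -0.38 in WT, and Mob3b 0.58 in Nono-/- and 0.27 in WT. Pdgfrl went the other way, with 2.05 in Nono-/- and 2.73 in WT.

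By level in WT total exons, with FPKM being per length, the members came in the order Cib3 at 5.93 ± 3.22, Ppp1r10 at 5.72 ± 1.37, Hexim1 at 5.44 ± 1.55, Clec2h at 5.10 ± 4.44, Mob3b at 4.57 ± 0.868 and Cabyr at 4.49 ± 2.49 FPKM (mean ± SD over 12 libraries). Fbxo36 at 3.65 ± 0.780, Tmem265 at 1.87 ± 0.362, Wwox at 1.49 ± 0.216 and Pdgfrl at 0.357 ± 0.208 FPKM came after. None of the first 6 differs from its neighbour in this order by more than their SDs, and the step to Fbxo36 exceeds its own SD but not that of Cabyr, while the steps from Fbxo36 to Tmem265, from Tmem265 to Wwox and from Wwox to Pdgfrl exceed the SD of 1 or both neighbours. In Nono-/- livers Cib3 led with 11 ± 5.17 FPKM, before Clec2h with 9.55 ± 8.05 and Fbxo36 with 7.35 ± 1.14 FPKM, and Hexim1 followed with 4.46 ± 1.13 FPKM. The 10 genes are thus of low to middling level, and in bulk liver fewer cells of a type and less RNA per cell cannot be told apart.

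Likeness was taken as the root mean square distance between mean-centred log2 values over 24 libraries of 1 fraction, so it holds the genotype difference and the daily course together. Mob3b lay closest to Bptf (0.14) and Ncoa2 (0.15), against a median distance of 0.46 over all genes, and Hexim1 to Mtfp1 (0.16) and Gga2 (0.21). Ppp1r10 was nearest to Nrp2 (0.28) and Ern1 (0.29), and Wwox to Cpne1 (0.39) and Med13l (0.40). For Fbxo36 the closest gene was Pspc1 (0.32), the DBHS relative of Nono, followed by Car1 (0.36), against a median of 0.62. Tmem265 had Srcap (0.27) and Crebbp (0.29), Cabyr had Gm16291 (0.50) and Zpr1 (0.52), and Cib3 had Tstd1 (0.65) and Inmt (0.65), the last against a median of 0.87. Clec2h had Fbxo21 (0.78) and Maff (0.80), against a median of 1.38, and Pdgfrl, in nuclear introns, had Cyp39a1 (0.95) and Gal (1.03), against 1.58. The libraries, their depths and the light cycle are shared by all these genes. The genotype difference that chose the members enters these distances.

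The genes on either side were looked at to see how local the differences were. Of the 40 neighbours, 22 could be tested in total exons, and 0 were higher and 2 lower in Nono-/-, where 4.46% and 6.47% of all genes were. The pair was Srcap beside Tmem265 and Atat1, a tubulin acetyltransferase gene 7128 bp from Ppp1r10, which fell by 0.44 (SE 0.13, limma adjusted p = 0.0268), a call lost on leaving out any of 7 times (adjusted p up to 0.0690). In total exons Maf past Wwox (0.02, limma adjusted p = 0.917) and Slc7a2 beside Pdgfrl (-0.12, limma adjusted p = 0.722) did not pass. In nuclear exons Maf, which encodes a transcription factor, was higher in Nono-/- by 0.45 (SE 0.11, limma adjusted p = 0.00681), a call that held whichever time was left out but not with the covariate (0.35, adjusted p = 0.0583). Mtus1, on the other side of Pdgfrl, stood at -0.17 (limma adjusted p = 0.0633), past the threshold with time as a block (adjusted p = 0.0179).

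In nuclear exons 3 of 21 tested neighbours were higher and 8 lower in Nono-/-, against 15.9% and 18.5% of all genes, and in nuclear introns 1 of 18 was higher and 4 lower, against 7.91% and 10.2%. In nuclear RNA the tested genes around Cib3 went the opposite way to Cib3. Fam32a fell by 0.45 in nuclear introns (SE 0.08, limma adjusted p = 0.00201) and by 0.23 in nuclear exons (SE 0.06, limma adjusted p = 0.0104). Ap1m1, which encodes a subunit of a clathrin adaptor, fell by 0.33 (SE 0.10, limma adjusted p = 0.0316) and 0.76 (SE 0.17, limma adjusted p = 0.00440) in the same 2 measures. Rab8a, which encodes a small GTPase of vesicle traffic, fell by 0.22 (SE 0.07, limma adjusted p = 0.0262) and 0.28 (SE 0.08, limma adjusted p = 0.0100). The intron calls of Rab8a and Ap1m1 were lost on leaving out any of 6 times (adjusted p up to 0.0814 and 0.0827), and in the data as deposited without scaling (adjusted p = 0.0717 and 0.0628), those of Fam32a held. With the intron share as a covariate Rab8a lost both calls (limma adjusted p = 0.0652 in nuclear exons and 0.130 in nuclear introns). Fam32a then lost its exon call (0.0594) but not its intron call (0.0120). Ap1m1 lost its intron call (0.155) but not its exon call (0.0424). In total exons none of these passed (limma adjusted p = 0.544, 0.420 and 0.644 for Fam32a, Ap1m1 and Rab8a), and the difference between nuclear and total RNA in this contrast was not tested.

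Other genes of the members' pathways were read next, in total exons, from lists that also hold genes not expressed in liver. Of 22 tested genes of 7SK and elongation control, to which Hexim1 belongs, 0 were higher and 7 lower in Nono-/-, against 4.46% and 6.47% of all genes, with a median difference of -0.12 against 0.00026 over all genes. Among them were Ccnk (-0.49, limma adjusted p = 0.0100), the cyclin partner of Cdk12 and Cdk13, and Aff1 (-0.30, limma adjusted p = 0.00730), a scaffold of the super elongation complex. Also past the threshold were Ccnt1 (-0.29, limma adjusted p = 0.0471), the cyclin of P-TEFb, Cdk12 (-0.28, limma adjusted p = 0.0209), Cdk13 (-0.20, limma adjusted p = 0.0482) and Aff4 (-0.18, limma adjusted p = 0.0327). Leaving out 1 time left 4 to 6 of them lower, with Ccnk and Aff1 among them each time. With the libraries' intron share as a covariate none of the 7 passed (Ccnk -0.45, adjusted p = 0.242), and that share was lower in Nono-/- total RNA.

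In nuclear exons 2 of 20 tested genes of the list were higher and 7 lower, against 15.9% and 18.5% of all genes, and the 2 higher ones were Cdk12 (0.30, limma adjusted p = 0.00399, but 0.08 and 0.253 without scaling) and Cdk13 (0.21, limma adjusted p = 0.0276), both lower in total exons. The lower ones held 3 subunits of the pausing complex NELF, Nelfcd (-0.60, limma adjusted p = 0.00308), Nelfb (-0.53, limma adjusted p = 0.00701) and Nelfa (-0.33, limma adjusted p = 0.0238), and also Mepce, Supt5 and Cdk9, and these genes were picked for naming after their values were seen. Without scaling Cdk13 stood at -0.0037 and Aff4 at -0.19, against 0.02 with it. Nuclear introns had 1 of 22 higher, Cdk12, and 6 lower, against 7.91% and 10.2% of all genes, again with Nelfa, Nelfb and Nelfcd. With the covariate these counts were 1 higher and 2 lower in nuclear exons and 0 higher and 4 lower in nuclear introns.

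Few partners of the other members passed in total exons. Of 17 tested genes of the PNUTS, PP1 and termination list none passed in limma, 0 higher and 0 lower (1 lower with time as a block), with a median of 0.02. The MOB and Hippo list had 1 of 18 higher, Wwtr1 (0.27, limma adjusted p = 0.0158), and 2 lower, Tead1 (-0.64, limma adjusted p = 0.00295) and Yap1 (-0.20, limma adjusted p = 0.0192, lost without 1 of the times), which are the transcription factor and the coactivator at the end of the Hippo pathway. Of 9 tested WWOX partners 0 were higher and 1 lower, Dvl3 (-0.61, limma adjusted p = 0.0126), a signal carrier of the Wnt pathway. Among 26 SCF and F-box genes 0 were higher and 0 lower, and 2 were higher with time as a block. The PDGF list had 0 of 7 higher and 1 lower, Pdgfd (-0.32, limma adjusted p = 0.0384), and 0 with time as a block.

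Of the family of Clec2h, Clec2d alone was tested in total exons. It had 214 ± 37.0 FPKM in Nono-/- and 172 ± 23.1 FPKM in WT (SD, n = 12 each), a difference of 0.29 (limma adjusted p = 0.0946), and with time as a block its adjusted p was 0.0264. In nuclear exons Clec2d was higher (0.35, limma adjusted p = 0.0314), and 0.13 without scaling (adjusted p = 0.422). Among CIB genes Cib2 was higher in total exons (0.45, limma adjusted p = 0.0446), a call lost on leaving out any of 8 times (adjusted p up to 0.111), and Cib1 was not past (0.09, limma adjusted p = 0.489), while in nuclear exons Cib1 was lower (-0.46, limma adjusted p = 0.0489), a call lost on leaving out any of 10 times (adjusted p up to 0.102) and with the covariate (adjusted p = 0.22). From the CABYR list Gsk3b was lower (-0.31, limma adjusted p = 0.0195) among 2 tested, a call lost on leaving out any of 3 times (adjusted p up to 0.0602) and with the covariate (adjusted p = 0.512). The DBHS and paraspeckle list, 10 genes tested, had 1 lower, Nono itself, and 1 higher, Pspc1 (0.83, limma adjusted p = 2.08e-06), whose call held whichever time was left out and with the covariate. With that covariate 2 genes of this list were higher, and 0 genes of any of the other lists here passed in total exons.

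Markers of other liver cells were read beside the members. Kupffer cell markers summed to 113 to 317 FPKM in Nono-/- total RNA, with a median of 204, against 96.0 to 242 FPKM and a median of 160 in WT, and none of the 12 was at 0. Of these 12, 5 were higher in Nono-/- total exons (Timd4, Cd5l, Adgre1, Vsig4 and Clec4f, by 0.29 to 0.46, limma adjusted p = 0.0183 to 0.0468) and 0 lower. That count rested on single times: it was 0 without ZT14, 1 without ZT12 or ZT18, 2 without ZT4, ZT6, ZT8 or ZT20, 3 without ZT0 and 10 without ZT10. With the covariate it was 0, and with time as a block 4, Clec4f being lost (adjusted p = 0.0637). In nuclear exons 5 of 11 were higher (7 with the covariate, 7 with time as a block and 1 without scaling), and in nuclear introns 4 of 12 (5 with the covariate and 4 with time as a block). Clec2h, Cib3 and Fbxo36 were higher in the same Nono-/- livers, in total exons by 0.90 to 1.03. In nuclear introns they stood at 1.21, 1.15 and 0.46, beside a median of 0.20 over the 12 Kupffer cell markers. Of the markers named, Cd5l stood at 0.74 there, Vsig4 at 0.52, Adgre1 at 0.42, Timd4 at 0.40 and Clec4f at 0.13. The part of Kupffer cell content in the difference of the members was not tested. Of the other lists, stellate cell markers had 1 higher (Dcn) of 9 tested (2 with time as a block), hepatocyte markers 1 lower (Hnf4a) of 7, and endothelial (10 tested), cholangiocyte (2 tested) and lymphocyte (1 tested) markers 0 either way in limma, though with time as a block the 1 lymphocyte marker tested was higher.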

How the data were processed

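Per the file headers, the deposited FPKM values (reads scaled for length and library size) were made by the authors with HOMER analyzeRepeats.pl on mm10, separately for exons (24453 genes) and introns (20771 genes), genes condensed; no strand option is recorded, so overlapping genes cannot be told apart. STAR 2.4.0k and FastQC 0.11.2 stand in the submitters' processing notes, and the sources used here do not state the HOMER version. All 48 value columns per table were used. Low values came out as whole reads for 100% of values of 1 to 10 reads (within 0.1), which gave depths of 9.91 to 28.9 M reads; at 3 reads or fewer a gene's value is within counting error.

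Values were divided by a median-ratio factor per library, and log2(FPKM + 0.1) for exons or log2(FPKM + 0.05) for introns was fitted with limma 3.58.1 (R 4.3.3, trend) on genotype and a 24 h curve per genotype, over genes with a mean of at least 0.5 or 0.1 FPKM. Fold changes are on that scale and understate the change of low genes. P-values were Benjamini-Hochberg adjusted over all genes, two-sided, with a threshold of 0.05. Nuclear and total RNA were compared within livers. Figures were drawn with matplotlib 3.10.9 (Python 3.11.15, pandas 2.3.3). The fits were tested on simulated data.

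Same-time Nono-/- and WT libraries deviated together, with correlations over 0.1 for 12 of 12 times in total exons (0.144 to 0.562), 11 of 12 in nuclear exons, 12 of 12 in total introns and 12 of 12 in nuclear introns. After removal of the fitted daily curves they were over 0.1 for 9, 7, 7 and 9 of 12 times in that order, with lowest values of -0.20, -0.16, -0.067 and -0.079. The pairing comes from the shared time in the labels. None of 1128 library pairs held identical values. The rule for named genes took the members and Nono, each member's 2 neighbours on either side, the 2 genes nearest in pattern, family members, and at most 4 genes per list past the threshold in total exons by smallest adjusted p; further genes of the elongation and Kupffer cell lists, and those named for nuclear RNA, were chosen after their values were seen. A gene of the lists is counted but not reported by name here. The members and all lists were chosen with earlier results of these data known. Alternatives were another pseudocount, filter and scaling, time as a block, a 12 h curve, the intron share as a covariate, an unpaired fit and leaving out each time.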

Additional observations from a re-analysis of the deposited data

How the results depend on the processing

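Members' differences kept their sign and moved by less than limma's moderated SD between libraries around the fitted curve in 591 of the alternative fits, a tolerance wide enough to pass Hexim1 nuclear exons at 0.092 without scaling against 0.30 with it; they moved by more in 7 and reversed in 4. Their rhythm tests stayed on the same side of the threshold in 1319, lost the call in 51 and gained it in 13. The 1319 include tests with no call before or after, among them those of the difference between the curves, which no gene passed in the main fits. That count therefore says little about how firm the calls are. The 51 losses could come only from calls of the main fit. These were 4, 4 and 5 members in Nono-/- total exons, nuclear exons and nuclear introns, and 3, 4 and 5 in WT. Reversed without scaling were Ppp1r10 total introns (-0.14), WT nuclear against total exons of Mob3b (-0.87) and Wwox (-0.11), the same in introns of Cib3 (0.38) and Clec2h (1.08), and nuclear exons of Aff4 (-0.19), Cdk13 (-0.0037) and Mtus1 (-0.21). Nuclear introns of Mob3b reversed with the intron share as a covariate (-0.061), and those of Tmem265 with it (-0.0031) and without ZT10 (-0.022, the range over all omitted times being -0.022 to 0.097). With that covariate the genotype difference was called for 23 genes in total exons, 24 in total introns, 1064 in nuclear exons and 1003 in nuclear introns. Time as a replicate block gave 2064 genes in total exons, and calls that changed with it are given in the text for some genes. With 1 library of each genotype at every time, the block cannot change a fitted genotype difference. The members' blocked fits, which are among the 591, therefore had to stay the same and show nothing about them. Without scaling total introns gave 3546 genes. A filter 4 times stricter, which tests fewer genes, gave 690 in total introns, 1797 in nuclear exons, 2120 for the Nono-/- nuclear exon rhythm and 6745 for WT nuclear against total exons. With 24 h and 12 h curves together the rhythm was called in Nono-/- for 1194 genes in nuclear exons and 1883 in nuclear introns, and in WT for 497, 1203 and 2104 in nuclear exons, nuclear introns and total exons. Apart from fewer genes tested under the stricter filter, the cause was not tested.

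Leaving out 1 time gave 713 to 1270 genes for the genotype difference in total exons, 2076 to 4500 in nuclear exons (2076 without ZT6, 2181 without ZT18), 775 to 1825 in total introns (lowest without ZT18) and 1130 to 2913 in nuclear introns (1442, 1130 and 1155 without ZT2, ZT6 and ZT18). Rhythm counts in Nono-/- were 2475 to 4067 in total exons, 1692 to 4322 in nuclear exons and 2510 to 4520 in nuclear introns, and in WT 2424 to 3895, 674 to 1110 and 1639 to 2463. Nuclear against total RNA gave 10084 to 10164 genes in exons and 7596 to 7717 in introns. The rhythm difference gave 0 to 1 gene in nuclear exons (1 without ZT0) and 0 in the other measures. Depth limits Pdgfrl exons in total RNA (2 to 28 reads a library). It also limits Fbxo36 exons (1 to 12 reads) and Cib3 exons (0 to 83 reads) in nuclear RNA.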
